A study of Mus musculus with 20 samples.

Results

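The genes described here are the cytosolic aminoacyl-tRNA synthetases and the amino acid genes commonly reported as targets of the transcription factor ATF4. They were taken from a list of 39 symbols in 4 roles, and a gene was kept where it had at least 1 CPM (the gene's share of all counts of a library, scaled up alike for each library) in at least 3 of the 20 libraries. Of the 39, 35 were kept, among 12139 kept genes of the 41115 in the tables. They were 16 of 17 synthetases, 9 of 10 enzymes of serine, one-carbon and proline synthesis, 6 of 7 amino acid transporters and 4 of 5 stress genes.

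Messenger RNA of mouse spleen was measured at 0, 15 and 30 min and at 1, 2, 3, 6, 12, 24 and 48 h. In the stimulated arm the cells met a cocktail of lipopolysaccharide, IL4 and TGFb, which per the design text is meant to induce AID, the deaminase of antibody genes. The untreated arm had none. Each arm was 1 mouse with 1 library per time, so an effect of the cocktail cannot be told apart from a difference between both mice. Where times were joined into phases, they stand in for replicates. In phase tests within an arm, p-values measure the spread between times. In phase tests of the cocktail each time had its own term, as it had where both arms were tested together over time. Those p-values measure how unevenly the arms differed from time to time, and not the spread between the times compared. No p-value measures the spread between animals of an arm. The sources used here do not give strain, sex, age or how the cells were kept, and the 0 min library of the stimulated arm carries the treatment label too.

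Totals ran from 36873155 to 60918651 counts per library. All 8 B cell markers were expressed, with a summed level of 1489 to 2451 CPM, whereas of the T cell markers only 2 of 8 passed the expression minimum, their sum was 36.7 to 74.4 CPM and Cd3e never exceeded 0.224 CPM. The label spleen therefore covers libraries with B cell RNA and little T cell RNA. In these bulk libraries fewer cells of a type and less RNA per cell cannot be told apart.

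Aminoacyl-tRNA synthetases load each tRNA with its amino acid and so feed every ribosome. When amino acids run short or the endoplasmic reticulum is under stress, kinases phosphorylate the initiation factor eIF2, translation of ATF4 rises, and ATF4, with partners of the C/EBP family, drives genes that import amino acids, make them and charge tRNAs. Trib3, Chac1 and Sesn2 are among its most responsive targets, and activated B cells are known to raise amino acid uptake and one-carbon metabolism before they divide.

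The C/EBP-ATF composite element is the sequence through which ATF4 and its partners bind many of these genes. Its core was searched as TGATGNAA on both strands in the 250 bases before each start in the RefSeq promoter table (GRCm38.p6), which holds 29 of the 39 genes. The core was found in 8 of the 29, whereas 3.45% of the 32851 promoters in the table held it. Those 8 were Chac1, Gars, Aars, Pycr1 and Tars, and 3 genes that were not kept, Asns, Slc7a11 and Vldlr. Of the kept genes the table holds 26, and 5 of them had the core, against 2.17% of the 11201 promoters of genes tested here. The members are counted as genes and the shares as promoters. The windows of Chac1, Gars, Pycr1 and Tars are shown because these genes later fell and rose again by very different amounts. Each runs 5′ to 3′ on the strand of the gene, with the core in capitals. Where the core lies on the opposite strand it reads as its reverse complement.
Chac1, chr2:119350992-119351241, plus strand: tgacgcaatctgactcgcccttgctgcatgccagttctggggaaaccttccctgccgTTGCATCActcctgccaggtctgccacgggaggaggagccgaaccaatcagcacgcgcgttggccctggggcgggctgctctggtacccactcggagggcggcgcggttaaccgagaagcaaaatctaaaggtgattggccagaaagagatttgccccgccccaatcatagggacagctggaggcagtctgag
Gars, chr6:55037751-55038000, plus strand: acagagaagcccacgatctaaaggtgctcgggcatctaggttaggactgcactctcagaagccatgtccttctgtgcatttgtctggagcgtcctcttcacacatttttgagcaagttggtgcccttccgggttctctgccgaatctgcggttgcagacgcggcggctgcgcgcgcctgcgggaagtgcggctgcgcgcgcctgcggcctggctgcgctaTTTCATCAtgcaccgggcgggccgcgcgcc
Pycr1, chr11:120643749-120643998, minus strand: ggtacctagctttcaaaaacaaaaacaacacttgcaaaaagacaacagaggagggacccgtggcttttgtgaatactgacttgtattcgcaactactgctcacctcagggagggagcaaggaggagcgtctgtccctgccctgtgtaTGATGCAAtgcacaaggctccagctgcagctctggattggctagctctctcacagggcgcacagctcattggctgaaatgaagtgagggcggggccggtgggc
Tars, chr15:11399659-11399908, minus strand: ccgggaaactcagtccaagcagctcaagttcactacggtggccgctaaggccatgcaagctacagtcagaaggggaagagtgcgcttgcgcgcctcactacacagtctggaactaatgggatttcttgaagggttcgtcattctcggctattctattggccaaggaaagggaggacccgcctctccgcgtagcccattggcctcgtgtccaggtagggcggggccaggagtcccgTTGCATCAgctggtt
Of these 4 windows the core begins nearest the start in Tars, 15 bases before it, and farthest from it in Chac1, 193 bases before it. No match lay in the windows of Trib3 or Sesn2, which says only that these letters are not in those 250 bases. The E-box CACGTG lay in the windows of Aars, Iars and Aldh18a1, 3 of 29 genes, and in 6.02% of all promoters and 8.31% of those of tested genes. A match is a description and not evidence of binding.

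In both arms most of the kept genes were high in the first hour (0 min to 1 h), fell to a low at 6 to 24 h and were high again at 48 h. From the first hour to 12 and 24 h, 25 of the 35 fell, 9 rose and only Slc1a5 did not pass the test, while of all genes tested 37.7% fell and 37.3% rose. The median log2 fold change was -0.63 for the 35 genes and -0.02 for all genes. Scaled by library totals, 25 fell and 7 rose, while of all genes 49% fell and 27.3% rose. From 12 and 24 h to 48 h, 24 rose, 4 fell and 7 did not pass, while of all genes 16.7% rose and 18.7% fell. Here the median was 0.73 for the 35 genes and -0.00 for all genes, and by library totals 27 rose and 3 fell, against 25.3% and 10.6% of all genes. These comparisons used edgeR's quasi-likelihood test on both arms together, with time and arm as terms and a threshold of 0.05 on the p-value adjusted over all genes. They were chosen after the time courses had been seen, and they share the 12 and 24 h libraries.

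Counted library by library, 25 genes were lower at 12 and 24 h than in every first-hour library of the same arm, in both arms (29.6% of all genes were), and 8 were higher (29.5%). At 48 h 27 genes were above both their 12 h and 24 h libraries in both arms (26.7% of all genes), and 4 were below (29.2%). At 48 h 24 genes of the untreated arm stood above each of their first-hour libraries (38.9% of all genes), as did 14 of the stimulated arm (41.3%). The 12 and 24 h libraries ran in other sequencing lanes than the 48 h libraries. Compared only within lanes, 12 and 24 h against 0 min and 1 h gave 25 lower and 9 higher, against 36.1% and 35.1% of all genes. In the same way 48 h against 3 and 6 h gave 28 higher and 1 lower, against 22.7% and 20.8%. The 1 was Pycr1. Hars, Kars, Shmt1 and Mthfd1, which were lower at 48 h than at 12 and 24 h, did not pass as lower there.

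**Figure D1:**
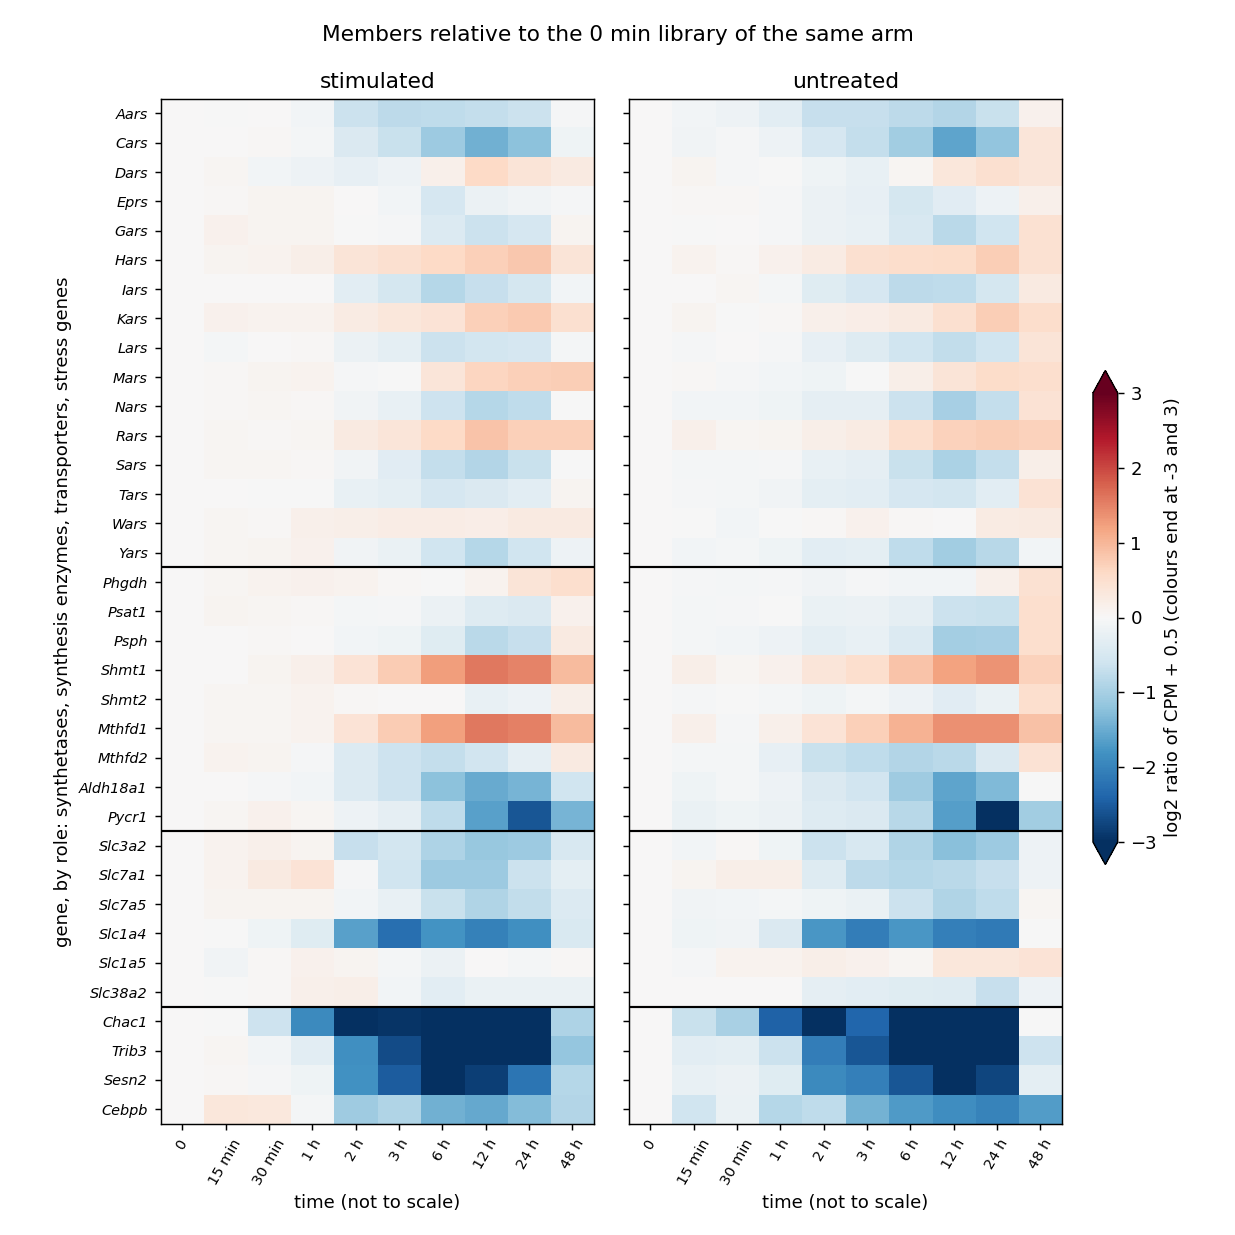
Log2 ratio of CPM plus 0.5 in each library to the 0 min library of the same arm, for the 35 kept genes (rows, lines between roles) at 10 times (columns) in the stimulated and untreated arm. Most rows turn blue from 2 h to 24 h and fade or turn red at 48 h, whereas Hars, Kars, Rars, Shmt1 and Mthfd1 turn red by 12 h.

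Of the 16 synthetases 10 were lower at 12 and 24 h than in the first hour and 6 were higher, where 37.7% of all genes were lower and 37.3% higher, so the share that rose was near that of all genes. The 10 were Aars, Cars, Eprs, Gars, Iars, Lars, Nars, Sars, Tars and Yars, with log2 fold changes from -1.33 (Cars) to -0.23 (Eprs, which carries both the glutamyl and the prolyl activity). The 6 were Dars, Hars, Kars, Mars, Rars and Wars, from 0.17 (Wars, which was -0.01 when scaled by library totals) to 0.70 (Rars).

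Cars, the cysteinyl-tRNA synthetase, had the largest fall of the 16. Its level in the stimulated arm was 206 to 218 CPM in the first hour, 158, 135 and 100.3 CPM at 2, 3 and 6 h, 78.5 and 91.2 CPM at 12 and 24 h, and 196 CPM at 48 h. The untreated arm held 193 to 213 CPM in the first hour, 151, 130.1 and 104 CPM at 2, 3 and 6 h, 70.6 and 93.8 CPM at 12 and 24 h, and 274 CPM at 48 h. No library at 12 or 24 h overlapped the first hour in either arm, and the untreated 48 h library was the highest of all 20. Its log2 fold change was -1.33 ± 0.08 (SE, adjusted p = 1.1e-08) at 12 and 24 h against the first hour and it was 2.83-fold higher at 48 h than at 12 and 24 h (adjusted p = 1.4e-06).

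Nars, the asparaginyl-tRNA synthetase, fell less far. Its first-hour level was 809 to 839 CPM in the stimulated and 739 to 814 CPM in the untreated arm. It was lowest at 12 h, with 451 and 405 CPM, and reached 798 and 1092 CPM at 48 h. The untreated library at 48 h held 141% of its arm's first-hour mean, and the stimulated one 96.4%. Gars, whose product charges glycine, and Sars, whose product charges serine, had log2 fold changes of -0.67 ± 0.07 and -0.80 ± 0.05 at 12 and 24 h, and of 0.93 ± 0.09 and 0.90 ± 0.06 from there to 48 h. All 10 synthetases that fell passed the test for a rise at 48 h, where 16.7% of all genes rose. Both tests share the 12 and 24 h libraries, so low values there favour both calls. The share of all genes is not limited to genes that fell. Eprs had the smallest log2 fold change of the 10, 0.27 ± 0.07 (adjusted p = 0.008).

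Rars, the arginyl-tRNA synthetase, rose in steps and stayed up. Stimulated cells held 229 to 240 CPM in the first hour, 276, 295 and 350 CPM at 2, 3 and 6 h, and 414, 376 and 376 CPM at 12, 24 and 48 h. In the untreated arm it stood at 223 to 249 CPM in the first hour, at 251, 267 and 319 CPM at 2, 3 and 6 h, and at 364, 372 and 360.9 CPM at 12, 24 and 48 h. From 2 h on each library lay above every first-hour library of its arm.

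Kars, the lysyl-tRNA synthetase, climbed from 282 to 308.5 CPM in the stimulated first hour to 485 CPM at 24 h and stood at 397 CPM at 48 h. The untreated values were 284 to 306 CPM, 480.3 CPM and 414 CPM. Dars, the aspartyl-tRNA synthetase, first dipped to 234 CPM at 2 h (stimulated) and 211 CPM at 3 h (untreated), and peaked at 424 CPM at 12 h and 344 CPM at 24 h. Mars, the methionyl-tRNA synthetase, stayed between 134 and 150 CPM until 3 h in both arms and reached 228 CPM (stimulated) and 207 CPM (untreated) at 48 h. From 12 and 24 h to 48 h, Hars fell by 0.28 ± 0.06 on the log2 scale (adjusted p = 0.0024) and Kars by 0.17 ± 0.05 (adjusted p = 0.03). Dars, Mars, Rars and Wars did not pass, with log2 fold changes from -0.13 to 0.09. Kars at 48 h was higher than at 3 and 6 h in the same lanes, by 0.21 ± 0.05 on the log2 scale. Hars had -0.10 in that comparison and did not pass. Of its exonic bases Mars shares 1.99% with Ddit3 and Aars 14.3% with Exosc6, and the sources used here do not say whether counting used strand.

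**Figure D2:**
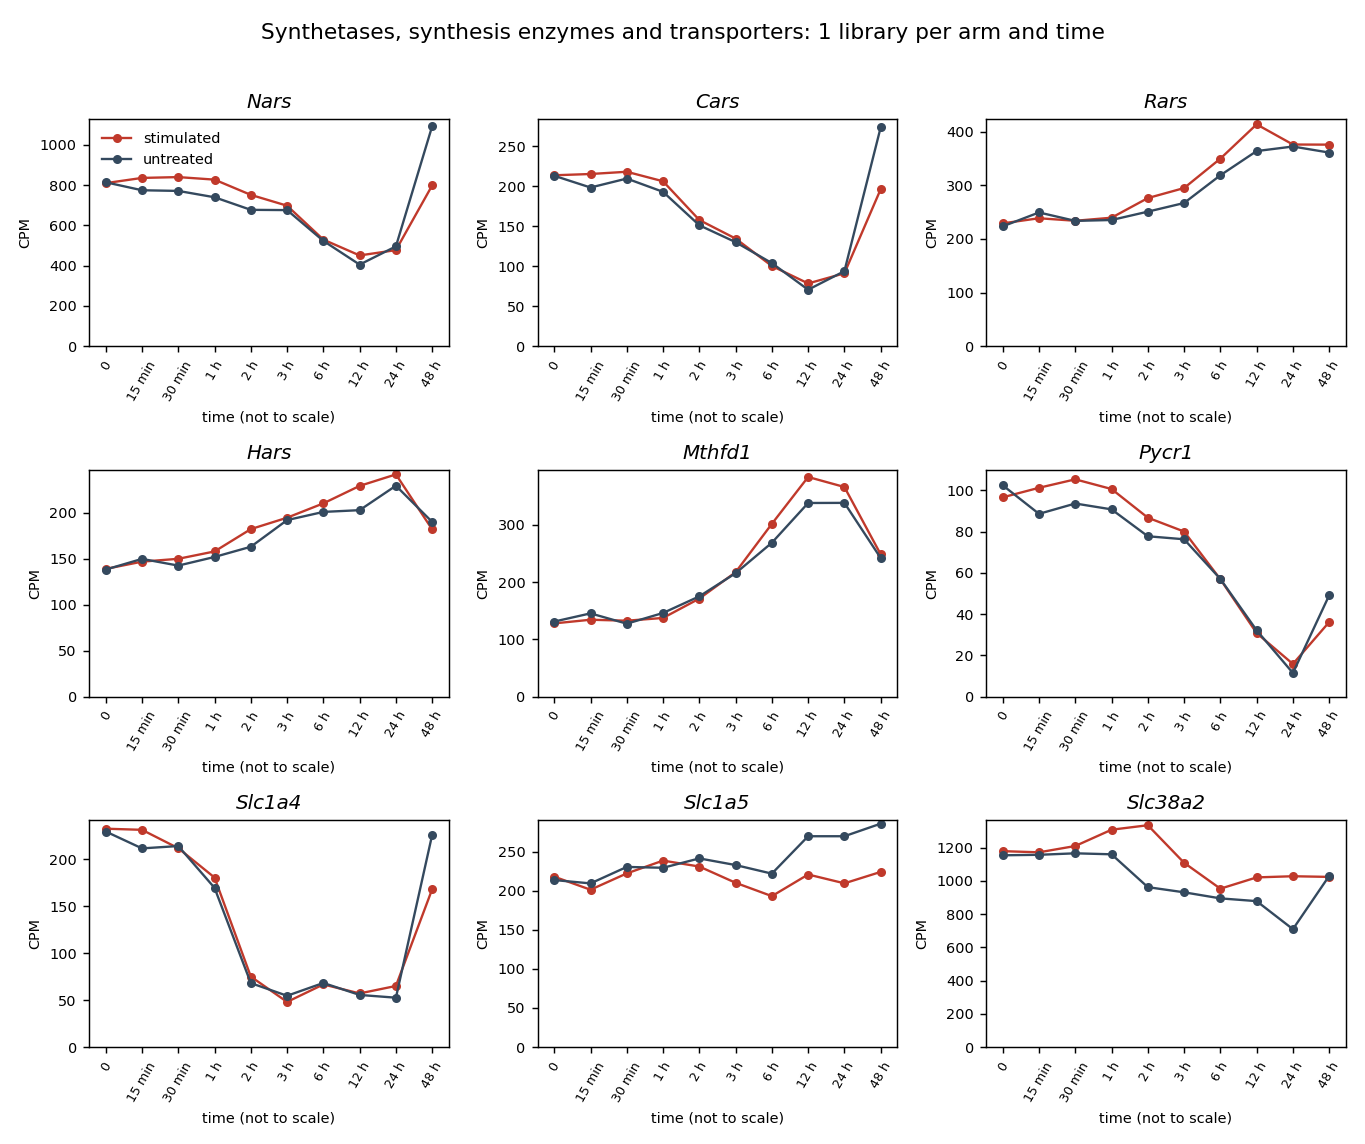
CPM (linear axis from 0) of 9 genes at 10 times, 1 library per point, stimulated arm in red and untreated arm in dark blue. Nars, Cars and Slc1a4 dip and return at 48 h, and Rars, Hars and Mthfd1 climb to 12 or 24 h. Slc1a5 is lower in the stimulated arm from 2 h on, and most so from 12 h.

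Serine is made from a glycolytic intermediate by Phgdh, Psat1 and Psph in turn, and folate enzymes then move its carbon, with Shmt1 and Mthfd1 in the cytosol and Shmt2 and Mthfd2 in mitochondria. At 12 and 24 h Shmt1 and Mthfd1 were higher than in the first hour and Shmt2 and Mthfd2 lower. Mthfd1 rose 2.64-fold (log2 1.40 ± 0.04, adjusted p = 4.1e-10) and Shmt1 2.52-fold (log2 1.33 ± 0.07, adjusted p = 5.6e-09). Shmt2 fell by 0.24 ± 0.06 (adjusted p = 0.0033) and Mthfd2 by 0.50 ± 0.05 (adjusted p = 2.7e-06) on the log2 scale. To 48 h the order turned, with -0.54 ± 0.07 for Mthfd1 and -0.58 ± 0.10 for Shmt1 against 0.57 ± 0.08 for Shmt2 and 0.88 ± 0.07 for Mthfd2, all past the threshold. Against 3 and 6 h in the same lanes, Mthfd1 had -0.02 and Shmt1 -0.03 at 48 h, and neither passed. Shmt2 and Mthfd2 were higher in that comparison too. The times compared also differ there.

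Mthfd1 rose through the course in both arms. Stimulated libraries went from 128 to 137 CPM in the first hour through 171, 217 and 302 CPM at 2, 3 and 6 h to 383 and 366 CPM at 12 and 24 h, and to 248 CPM at 48 h. In the untreated arm it went from 127 to 146 CPM through 175, 215 and 269 CPM to 338 CPM at both 12 and 24 h, and to 242 CPM at 48 h. The summed level of 6 proliferation genes moved with it, from 2082 to 2267 CPM in the first hour of both arms to 3401 to 3837 CPM at 12 and 24 h, then 2662 CPM (stimulated) and 3249 CPM (untreated) at 48 h. Mki67 followed less closely in the stimulated arm, with 785 to 833 CPM in the first hour and 1003 and 842 CPM at 12 and 24 h. At 48 h it stood at 739 CPM, and of the 6 genes it alone was below every first-hour library of that arm. The part of proliferation in the change of Mthfd1 and Shmt1 was not tested.

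Of the serine enzymes, Phgdh changed least, with a log2 fold change of 0.11 ± 0.04 (adjusted p = 0.019) at 12 and 24 h that was -0.02 without the 24 h libraries and -0.07 under scaling by library totals alone. It reached 537 (stimulated) and 542 CPM (untreated) at 48 h from 375 to 414 CPM in the first hour. Psat1 and Psph both fell and then passed the first-hour level. Psph stood at 121 to 125 and 109 to 121 CPM in the first hour, at 59.7 to 74.6 CPM at 12 and 24 h of both arms, and at 146 and 171 CPM at 48 h. Its rise to 48 h was 1.27 ± 0.08 on the log2 scale, and 0.67 against 3 and 6 h in the same lanes.

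The proline enzymes, Aldh18a1, which makes the precursor from glutamate, and Pycr1, which takes the last step, fell further. Aldh18a1 had a log2 fold change of -1.40 ± 0.09 (adjusted p = 1.9e-08) at 12 and 24 h and of 1.18 ± 0.11 (adjusted p = 2.5e-05) to 48 h. Pycr1 held 101 ± 3.59 CPM (SD, n = 4 times) in the stimulated and 93.8 ± 6.08 CPM in the untreated first hour, then 30.8 and 32.1 CPM at 12 h, 15.8 and 11.4 CPM at 24 h, and 36.1 and 49.1 CPM at 48 h. Its log2 fold change at 12 and 24 h was -2.23 ± 0.10, which was -2.84 without 12 h and -1.63 without 24 h. Its 48 h libraries held 35.8% and 52.3% of the first-hour means, so it did not return to them. The rise of Pycr1 to 48 h of 1.05 ± 0.13 on the log2 scale was against 12 and 24 h (1.66 without 12 h and 0.44 without 24 h), and against 3 and 6 h in the same lanes it was lower, by -0.64 ± 0.13.

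Of the 6 transporters 5 fell at 12 and 24 h, Slc1a4, Slc3a2, Slc7a1, Slc7a5 and Slc38a2, and 4 rose to 48 h. Of all genes 37.7% fell at 12 and 24 h and 16.7% rose to 48 h. Slc3a2 is the heavy chain that carries the leucine transporter Slc7a5 to the surface, Slc7a1 brings in arginine and lysine, and Slc1a4 brings in serine, alanine and cysteine. Slc1a4 changed most. It stood at 181 to 233 CPM in the stimulated and 170 to 229.8 CPM in the untreated first hour, at 48.1 to 75.1 CPM in all 10 libraries from 2 to 24 h, and at 168 and 226 CPM at 48 h. Its log2 fold change was -1.86 ± 0.09 (adjusted p = 2.7e-09) and then 1.78 ± 0.11 (adjusted p = 9.1e-07).

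Slc7a1 did not peak at the start but at 1 h in the stimulated arm, with 769 CPM after 575, 619 and 689 CPM at 0, 15 and 30 min, and at 30 min in the untreated arm with 688 CPM. It was lowest at 6 h in both arms, with 269.5 and 335 CPM. Slc3a2 and Slc7a5 had log2 fold changes of -1.17 ± 0.07 and -0.82 ± 0.08 at 12 and 24 h and of 0.84 ± 0.09 and 0.68 ± 0.10 from there to 48 h.

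Slc38a2, a transporter of small neutral amino acids, fell by 0.40 ± 0.08 on the log2 scale (adjusted p = 0.00039) at 12 and 24 h and did not pass the test to 48 h, with 0.19 ± 0.10. With the cocktail it was between 1172 and 1335 CPM up to 2 h and between 953 and 1109 CPM after. Without it, levels were between 1154 and 1166 CPM up to 1 h and lowest at 24 h, with 709 CPM. At 48 h both arms had nearly the same level, 1024 and 1030.0 CPM.

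The 4 stress genes had the largest falls of the 35 at 12 and 24 h. Trib3, a pseudokinase that dampens ATF4 activity, fell 22.8-fold from the first hour to 12 and 24 h (log2 -4.51 ± 0.23, adjusted p = 4.3e-09) and rose 14.3-fold to 48 h (log2 3.83 ± 0.25, adjusted p = 1.4e-06). The stimulated libraries held 154, 160.4, 145 and 124 CPM in the first hour, 43.1, 23.4 and 8.33 CPM at 2, 3 and 6 h, and 3.94, 9.86 and 69.0 CPM at 12, 24 and 48 h. The untreated libraries held 155, 124, 126 and 99.7 CPM in the first hour, 36.7, 25.9 and 13.8 CPM at 2, 3 and 6 h, and 5.47, 5.15 and 99.97 CPM at 12, 24 and 48 h. Within lanes the rise of Trib3 was 2.36 on the log2 scale (48 h against 3 and 6 h). Neither arm was back at its first-hour mean at 48 h, with 47.3% of it after stimulation and 79.1% without.

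Chac1, which degrades glutathione, fell from the first library on in the untreated arm, with 95.4, 59.9, 48.2 and 17.2 CPM at 0, 15, 30 min and 1 h. The stimulated libraries held 116.9, 116.4, 75.7 and 30.9 CPM at these times. It was lowest at 12 h, with 3.05 and 4.50 CPM, and stood at 61.7 and 95.1 CPM at 48 h. Its first-hour mean in the stimulated arm was 85.0 ± 40.9 CPM (SD, n = 4 times), with the lowest value at 1 h. Its log2 fold changes were -3.37 ± 0.33 (adjusted p = 1.2e-06) and 3.75 ± 0.39 (adjusted p = 4.5e-05). They were -2.75 and 3.14 without 12 h, and -4.01 and 4.38 without 24 h, and within lanes 48 h against 3 and 6 h gave 2.84.

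Sesn2, a sensor that restrains the growth kinase mTORC1, went from 154 to 173 CPM in the stimulated first hour to 20.5 CPM at 6 h and 92.9 CPM at 48 h. In the untreated arm it went from 120 to 155 CPM to 18.9 CPM at 12 h and 126 CPM at 48 h. Its log2 fold changes were -2.60 ± 0.16 (adjusted p = 1.8e-08) and 2.15 ± 0.19 (adjusted p = 1.5e-05). Cebpb, a C/EBP partner of ATF4, was near the expression minimum throughout. It reached at most 157 counts or 2.43 CPM, had at least 1 CPM in 9 libraries only, and shares 20.7% of its exonic bases with the antisense Tmem189. It fell by 2.67 ± 0.31 on the log2 scale at 12 and 24 h and did not pass the test to 48 h, with 0.93 ± 0.42 (adjusted p = 0.1).

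**Figure D3:**
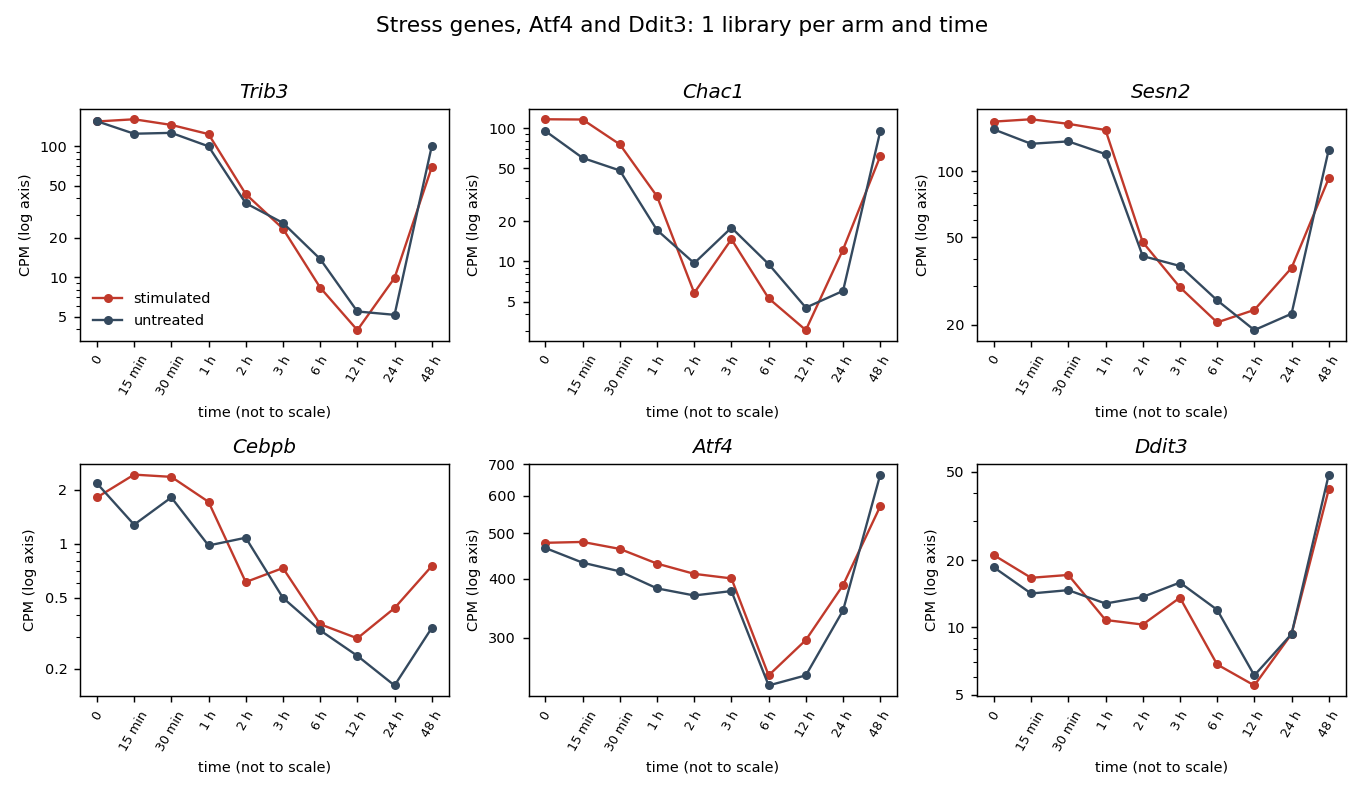
CPM on a log axis of 4 stress genes and of Atf4 and Ddit3 at 10 times, 1 library per point, stimulated arm in red and untreated arm in dark blue. Trib3 runs from above 100 CPM at 0 min to under 10 CPM at 12 h and up again at 48 h, and Atf4 and Ddit3 are highest at 48 h in both arms.

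Of the 4 genes not kept, Asns, the asparagine synthetase and a classic ATF4 target, reached 17 counts or 0.347 CPM at most. Its counts were 8 to 17 in the first hour of both arms and 0 to 2 from 12 h on. Slc7a11, the cystine transporter, had 0 to 9 counts and Vldlr, a lipoprotein receptor, 0 to 4. Vars, the valyl-tRNA synthetase, had at most 1 count in any library and 0 in 15 libraries. The 26 protein-coding genes of the tables within 120 kb of Vars on chromosome 17 had at most 1 count each as well, and 23 of them were at 0 in every library. The value for Vars is therefore shared with its whole neighbourhood and is given here as listed at 0 or 1.

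**Figure D4:**
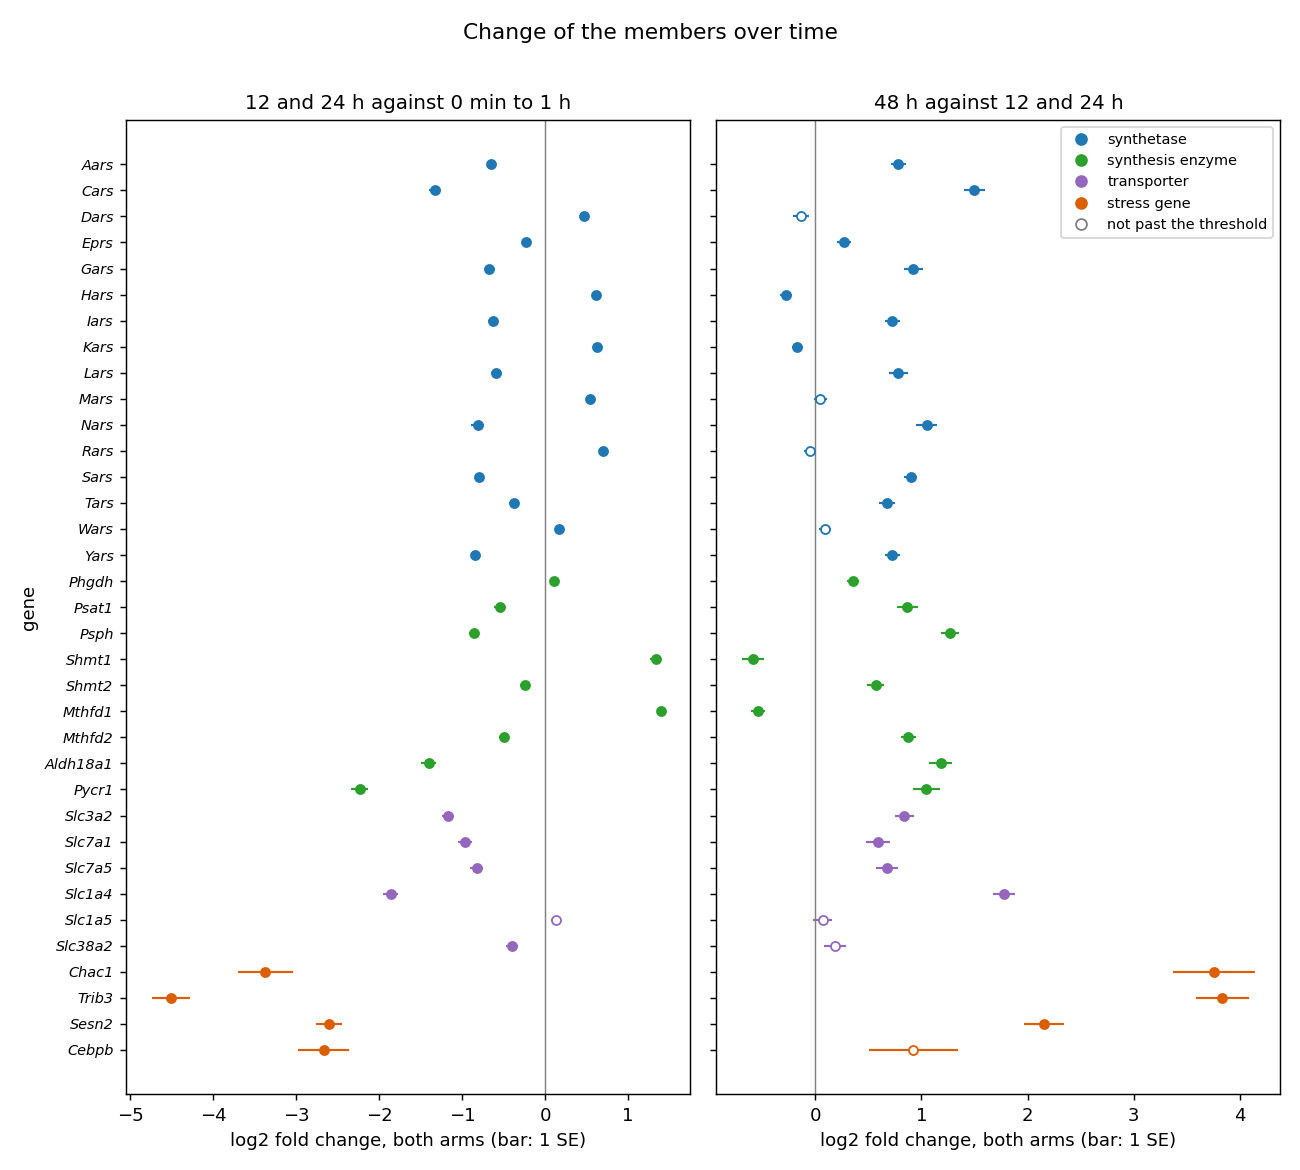
Log2 fold change of the 35 genes with both arms in 1 fit, 12 and 24 h against the first hour (left) and 48 h against 12 and 24 h (right). Bars are 1 SE, colours are roles and open points did not pass the threshold. Trib3 and Chac1 lie farthest from 0 on both sides, and Mthfd1 and Shmt1 have the highest values on the left.

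ATF4 itself is controlled mainly at translation, which messenger RNA does not show. Its messenger RNA, Atf4, was 431 to 479 CPM in the stimulated and 382 to 465 CPM in the untreated first hour, lowest at 6 h with 250.2 and 238 CPM, and highest at 48 h with 570.4 and 665 CPM. Its log2 fold change was -0.49 ± 0.06 (adjusted p = 4.4e-06) at 12 and 24 h and 0.97 ± 0.07 (adjusted p = 5.1e-06) from there to 48 h. Ddit3, the ATF4 target also called CHOP, was 10.8 to 21.1 CPM in the first hour, 5.49 and 6.09 CPM at 12 h, and 41.6 and 48.5 CPM at 48 h, so at 48 h it was above every first-hour library.

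Of 25 tested regulators and other reported targets of ATF4, Atf4 and Ddit3 among them, 18 fell and 2 rose from the first hour to 12 and 24 h. Of all genes 37.7% fell and 37.3% rose. The median log2 fold change was -0.76, against -0.02 for all genes. To 48 h 17 rose and 1 fell, where 16.7% of all genes rose and 18.7% fell. The median was 0.63, against -0.00 for all genes. Apart from Atf3, the furthest from 0 were Nupr1, a stress-induced chromatin protein, with -3.89 ± 0.22 and 4.54 ± 0.25, the glycine transporter Slc6a9 with -3.37 ± 0.15 and 3.08 ± 0.17, and the alanine aminotransferase Gpt2 with -3.09 ± 0.13 and 3.16 ± 0.15. The transcription factor Atf3 passed both tests too, but had at most 62 counts in any library and 0 to 8 at 12 and 24 h, so no fold change is given. Those that rose at 12 and 24 h were Eif2ak2, the kinase activated by double-stranded RNA, and Cbs.

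In the other lists the counts stand beside 37.3% of all genes that rose and 37.7% that fell at 12 and 24 h, and 16.7% and 18.7% to 48 h. Of 8 remaining cytosolic synthetase and complex genes 6 rose at 12 and 24 h and 0 fell, led by both chains of the phenylalanyl enzyme, Farsa with 1.06 ± 0.04 and Farsb with 0.73 ± 0.05. To 48 h 3 of them fell and 0 rose. Of 17 mitochondrial synthetases 10 rose and 5 fell at 12 and 24 h, and 1 rose and 4 fell to 48 h. Of 19 other one-carbon, serine, glycine and proline genes 13 rose and 5 fell at 12 and 24 h. Those with positive values included Gcsh of the glycine cleavage system (1.24 ± 0.06), thymidylate synthase Tyms (1.17 ± 0.07) and Atic of purine synthesis (1.16 ± 0.05). To 48 h 5 of the 19 rose and 8 fell. Of 11 other amino acid transporters 4 rose and 6 fell at 12 and 24 h, and 5 rose and 0 fell to 48 h.

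Within each arm the course was also tested in phases, early (15 min, 30 min and 1 h), middle (2, 3 and 6 h) and late (12, 24 and 48 h). From early to middle 2 of the 35 genes rose and 3 fell in the untreated arm, where 13.6% of all genes rose and 11.9% fell. In the stimulated arm 4 rose and 9 fell, against 22.1% and 19.3% of all genes. Hars and Mthfd1 rose in the untreated arm, and Slc7a1, Slc1a4 and Sesn2 fell there, Sesn2 with a log2 fold change of -1.91 ± 0.60 (adjusted p = 0.032). In the stimulated arm Hars, Rars, Shmt1 and Mthfd1 rose, and Aars, Iars, Mthfd2, Slc3a2, Slc7a1, Slc1a4, Chac1, Sesn2 and Cebpb fell, Sesn2 with -2.33 ± 0.61 (adjusted p = 0.0078).

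From middle to late 4 genes rose and 1 fell in each arm, against 6.19% and 5.83% of all genes in the untreated and 11.5% and 10.1% in the stimulated arm. In both arms Dars, Kars, Mars and Rars rose, with log2 fold changes from 0.34 to 0.57, and Pycr1 fell, by 1.19 ± 0.37 (untreated, adjusted p = 0.047) and 1.43 ± 0.37 (stimulated, adjusted p = 0.015). The 48 h libraries decided this count, since without them 11 genes in each arm fell from middle to late, against 8.1% (untreated) and 11.9% (stimulated) of all genes. Without the 48 h libraries 16 genes in the untreated and 20 in the stimulated arm fell from early to middle, against 17.1% and 23.4%. With lane as an added term 0 of the 35 rose and 0 fell from middle to late in the untreated arm, against 0.00824% and 0% of all genes, and 1 rose and 0 fell in the stimulated arm, against 7.6% and 6.08%.

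Between the arms the 35 genes differed little. Each stimulated library was set against the untreated one of its time, and the treatment effect was tested within each phase. In the early phase 0 of the 35 genes passed edgeR's test, against 2.24% of all genes. DESeq2 also gave 0, and 4 had an unadjusted p under 0.05 in edgeR, Chac1 (log2 0.82 ± 0.22, adjusted p = 0.084), Cebpb (0.70 ± 0.24, adjusted p = 0.16), Slc3a2 and Slc7a5. In the middle phase 1 passed, against 20.5% of all genes, which was Rars with 0.14 ± 0.04 (adjusted p = 0.041). That call was kept in 4 of 17 alternatives, with adjusted p from 0.019 to 0.69. In the late phase 1 passed, against 36.1% of all genes.

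That gene was Slc1a5, the glutamine transporter, which was 1.27-fold lower in the stimulated arm (log2 -0.35 ± 0.04, adjusted p = 0.00017). It stood at 221, 209.6 and 224 CPM in the stimulated and at 269.9, 269.9 and 286 CPM in the untreated libraries at 12, 24 and 48 h, so the arms did not overlap. At 0 min it stood at 218 and 214 CPM. At 2, 3 and 6 h its log2 ratio of stimulated to untreated was -0.06, -0.15 and -0.20. The middle-phase effect was -0.133 ± 0.045 (edgeR, adjusted p = 0.058) and did not pass. The call was kept in 16 of 17 alternatives and lost with a spline of time and lane (adjusted p = 0.4). Of the other members Cebpb had the largest late effect, 0.97 ± 0.36 (adjusted p = 0.055). Among 24 tested regulators and other reported targets of ATF4, 1 was higher and 0 lower early, against 2.24% of all genes. In the middle phase 3 were higher and 2 lower, against 20.5%, and in the late phase 5 and 2, against 36.1%. Ddit3 was lower in the stimulated arm in the middle phase, by 0.47 ± 0.12 on the log2 scale (edgeR, adjusted p = 0.021). Atf4 passed in no phase.

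The treatment effect differed between the middle and the early phase for Chac1 alone of the 35, against 6.39% of all genes, by -1.42 ± 0.33 (log2, adjusted p = 0.032). Chac1 was higher in the stimulated arm at each early time and lower at each middle time. The call was lost without any 1 of the 6 early and middle times, and with lane as a term (adjusted p = 0.18). Between the late and the middle phase 0 of the 35 passed in edgeR and 0 in DESeq2, with 2 at an unadjusted p under 0.05 in edgeR, against 6.74% of all genes.

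The phases hide a turn within the late phase. At 12 h 30 of the 35 genes were higher in the stimulated library, all 16 synthetases among them, with a median log2 ratio of 0.14, where 46.8% of all genes were lower. At 24 h 26 were higher, where 50% of all genes were lower. The 4 stress genes had a median of 0.78 at 24 h, against 0.00 for all genes. At 48 h 29 of the 35 (82.9%) were lower in the stimulated library, where 50.3% of all genes were, and the median was -0.25 for the 35 genes and -0.00 for all genes. The lowest ratios at 48 h were those of Chac1 (-0.62), Aldh18a1 (-0.61), Trib3 (-0.53) and Cars (-0.48). Each of these ratios compares 1 library with 1 library and has no test. At 48 h the summed level of 8 macrophage markers was 98.1 CPM in the stimulated and 39.0 CPM in the untreated library, against 55.9 to 62.4 CPM in the first hour, while C1qa and C1qb never passed 3 counts. At 48 h Emr1 was at 36.1 and 1.3 CPM, Csf1r at 42.7 and 19.6 CPM and Cd68 at 18.4 and 17.8 CPM, and Lyz2, Cd14 and Itgam were under 1 CPM. Dendritic cell markers summed to 66.1 and 22.0 CPM and B cell markers to 1589 and 2163 CPM at 48 h. The part of these cell types in the ratios at 48 h was not tested. At no time did both arms run in the same lane, so lane and arm cannot be told apart at a single time.

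At 0 min 14 of the 35 genes were higher and 21 lower in the stimulated arm's library, where 50.7% of all genes were lower. Ratios ran from -0.21 (Cebpb) to 0.29 (Chac1). From 15 min to 1 h all 4 stress genes were higher in the stimulated arm, with medians of 0.55, 0.29 and 0.47. Of all genes 47.9%, 49% and 49.5% were lower there at 15 min, 30 min and 1 h. Chac1 had ratios of 0.95, 0.65 and 0.82 at these times and Cebpb 0.72, 0.31 and 0.58. At 6 h Chac1 and Trib3 were on the other side, at -0.80 and -0.69.

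**Figure D5:**
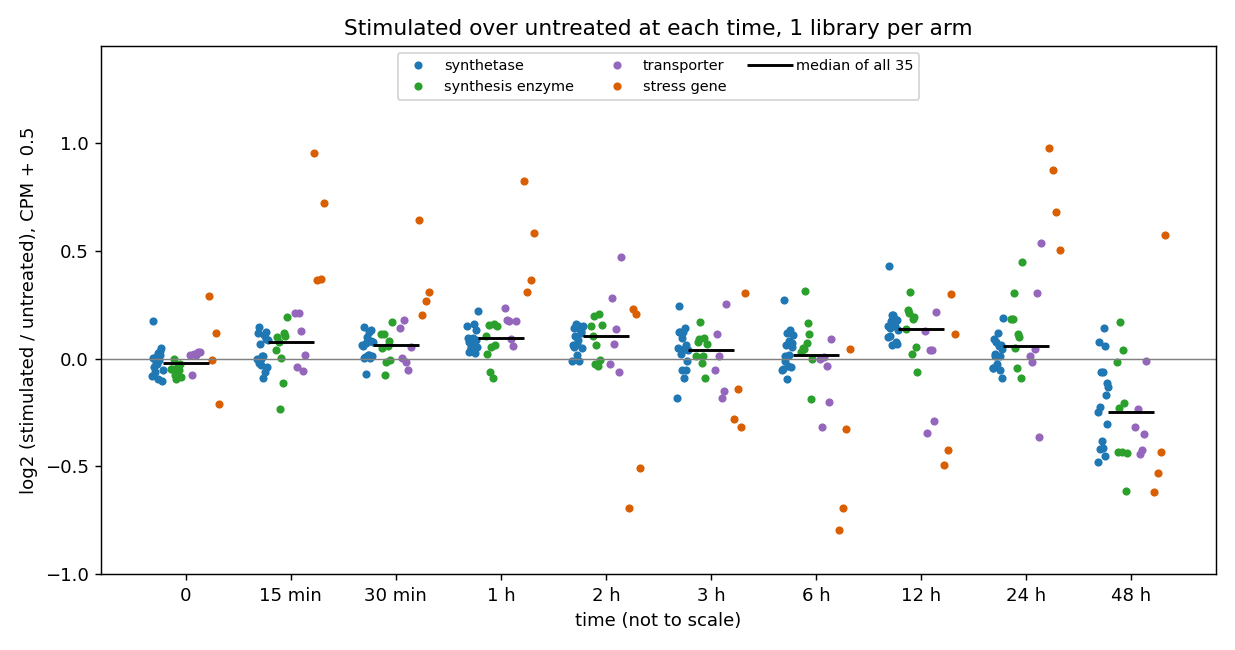
Log2 ratio of the stimulated to the untreated library at each time for the 35 genes (CPM plus 0.5 in both, colours are roles, black bars are medians over the 35). The medians lie between -0.02 and 0.14 up to 24 h and at -0.25 at 48 h, and the stress genes spread most.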

How the data were processed

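Poly-A libraries (TruSeq) of spleen RNA were made at 10 times in 2 arms, 20 libraries in all. The deposited values are counts per gene, one table per library. The submitters' processing notes name STAR, HTSeq and the build GRCm38.p3 (mm10). The sources used here give no versions, filters or strand setting. Lanes were read from the library names in the labels.

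Every gene that reached 1 CPM in 3 or more libraries entered the tests. These used TMM scaling and the quasi-likelihood test of edgeR 4.0.16 (R 4.3.3), with p-values adjusted over all genes after Benjamini and Hochberg and a threshold of 0.05. Printed CPM are TMM-scaled. Treatment was fitted within 3 phases in the 18 libraries after 0 min, with time as a factor (12042 genes, 6 residual degrees of freedom). Phases within an arm were fitted as 8 groups (12139 genes). The comparisons over both arms had time and arm as terms. SE is the size of a log2 fold change divided by the square root of F. Single-time ratios used CPM plus 0.5. No fold change was computed for genes under the minimum, and the floor of detection was 3 counts, which covers counting error only.

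Members and lists were chosen with earlier results of these data known. The rule for values in single libraries named up to 12 genes with the smallest p in the phase tests, which were Slc1a5, Dars, Cebpb, Rars, Slc38a2, Mars, Kars, Slc1a4, Slc7a1, Mthfd1 and Sesn2, and up to 10 genes per comparison by fold change. The values of Trib3, Chac1, Cars, Nars, Psph, Pycr1 and Phgdh, and examples from lists beyond the 4 with the largest change, were picked after they had been seen. Fits were tested on simulated data.

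Alternatives were RLE size factors, library totals, DESeq2 1.42.0, no filter, at least 5 CPM, lane, each time left out, and differences from the 0 min pair. A spline of time with 3 degrees of freedom, with and without lane, and fits within lanes were chosen later, with the data in view. Lane and phase effects could not be fitted together with time as a factor.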

Additional observations from a re-analysis of the deposited data

Results flagged for a closer look

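The treatment effect on Chac1 differed between the middle (2, 3 and 6 h) and the early phase (15 min to 1 h) by -1.42 ± 0.33 on the log2 scale (edgeR, adjusted p = 0.032, range over the alternatives 9.3e-26 to 0.68). Chac1 was higher in the stimulated library at 3 of 3 early times and lower at 3 of 3 middle times. The difference was -1.02 with lane as a term (adjusted p = 0.18) and -0.70 with a spline of time (adjusted p = 0.68). No group of the design held 4 or more libraries of 1 condition, so single libraries were not tested for standing apart.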

How the results depend on the processing

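No paired analysis was possible beyond the pairing by time because the labels carry no replicate numbers. The counts over both arms held their size under every alternative run, except that within the same lanes 1 gene instead of 4 fell to 48 h. That gene was Pycr1, which rose against 12 and 24 h. The 4 that fell in the main test, Hars, Kars, Shmt1 and Mthfd1, did not pass as lower there, where the times compared also differ. Lane as an added term was not run for these counts. Leaving out each time gave 7 to 9 genes higher and 24 to 25 lower at 12 and 24 h, and 23 to 24 higher and 3 to 4 lower at 48 h. The comparison to 48 h rests on 1 library per arm at 48 h, a time that could not be left out of it. Library totals as the only scaling moved the median of all genes by -0.20 at 12 and 24 h and 0.11 at 48 h, and by -0.14 from early to middle in the stimulated arm.

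The small counts between arms and phases moved more. Without a filter 5 genes were higher early, 2 higher and 1 lower in the middle phase, and 4 higher and 3 lower late, the effect differed for 3 genes (middle minus early) and 1 gene (late minus middle), and in the untreated arm 1 rose and 6 fell early to middle and 2 rose middle to late, as did 2 in the stimulated arm. With library totals 0 were higher and 1 lower in the middle phase and 3 lower late, and in the untreated arm 1 rose early to middle and 0 fell middle to late. With at least 5 CPM 0 were higher and 1 lower in the middle phase. Higher in the middle phase were 0 with a spline, with a spline and lane, or relative to the 0 min pair. Lower late were 0 with a spline and lane. Higher late were 1 with RLE and 2 with DESeq2. The middle minus early difference gave 0 with lane and with either spline. With DESeq2 6 fell early to middle and 2 fell middle to late in the untreated arm. With lane 15 fell early to middle in the untreated arm, and middle to late 0 rose and 0 fell in the untreated and 1 rose and 0 fell in the stimulated arm.

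Leaving out each time gave 0 to 3 genes higher and 0 lower early, 0 to 4 higher and 0 to 1 lower in the middle phase, 0 to 5 higher and 1 to 6 lower late, 0 to 2 for either difference, 0 to 4 rising and 0 to 16 falling early to middle and 0 to 6 rising and 0 to 11 falling middle to late (untreated), and 3 to 5 rising and 3 to 20 falling, then 1 to 6 rising and 0 to 11 falling (stimulated).

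Signs turned for Phgdh at 12 and 24 h, with -0.072 by library totals and -0.018 to 0.242 with a time left out (lowest without 24 h), and for Wars with -0.014 by library totals. Against the same lanes Kars at 48 h had 0.21 and Pycr1 -0.64, where the times compared also differ. The cause was not tested for any of these. Of the values for named genes 1288 kept direction and side of the threshold, 144 lost the call and 5 turned sign. Low depth limits the values of Cebpb, with at most 157 counts.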
